A study of Mus musculus with 6 samples.

Results

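The let-7 family with miR-98 was followed through 6 small RNA libraries of mouse heart cardiomyocytes. Mature rows of the count table were taken when their name, without the arm suffix and the genomic copy number, was 1 of 9 members: let-7a, let-7b, let-7c, let-7d, let-7e, let-7f, let-7g, let-7i or miR-98. This gave 21 of 1974 mature rows, 9 for the 5p arm and 12 for the 3p arm. The rows of let-7a-1-3p and let-7c-2-3p held the same counts and were treated as 1, which left 20 of 1952. All mice were C57BL/6 per the labels. The groups were adult wild type (2 libraries), adult lncSync-/- (2 libraries, called knockout here), wild type at e13.5 (1 library) and lncSync-/- at e13.5 (1 library), where e13.5 counts embryonic days after conception. lncSync is a long non-coding RNA, and the labels give neither the design of the deleted allele nor the age of the adults. Whether replicates are separate animals is not stated either. The p-values therefore rest on the spread between libraries, and that spread may be technical.

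Let-7 was discovered as a regulator of developmental timing in the worm and is conserved across animals. Each hairpin is cut into a duplex, from which the 5p arm is usually kept as the guide strand and the 3p arm is usually discarded as the passenger. Guide strands repress mRNAs that match the seed, and well-known targets encode LIN28, HMGA2 and RAS proteins. LIN28, an RNA-binding protein of embryonic cells, binds let-7 precursors and blocks their maturation, and in many tissues mature let-7 accumulates as cells differentiate.

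All 9 guide strands carry the seed GAGGUAG (bases 2 to 8, counted from 1 at the 5′ end) and are 22 bases long, so they differ only outside it. The sequences below, from RefSeq on GRCm38.p6, are shown because the members moved apart in the libraries although the seed is shared. Capitals mark the seed.
let-7a-5p: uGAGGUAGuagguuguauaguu
let-7b-5p: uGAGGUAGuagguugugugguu
let-7c-5p: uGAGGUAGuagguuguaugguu
let-7d-5p: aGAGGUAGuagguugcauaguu
let-7e-5p: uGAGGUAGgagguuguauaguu
let-7f-5p: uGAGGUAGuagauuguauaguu
let-7g-5p: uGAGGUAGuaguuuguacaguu
let-7i-5p: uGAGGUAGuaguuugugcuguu
miR-98-5p: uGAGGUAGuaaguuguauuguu

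Against let-7a-5p, let-7c-5p differed by A19G, let-7e-5p by U9G and let-7f-5p by G12A, each a single base. A pair of changes separated let-7b-5p (A17G and A19G), let-7d-5p (U1A and U16C), let-7g-5p (G12U and U18C) and miR-98-5p (G11A and A19U) from it. let-7i-5p was the most distant from let-7a-5p, with G12U, A17G, U18C and A19U. Of the 36 pairs of guide strands, 4 are 1 base apart and 10 are 2 bases apart. Reads with a sequencing error can therefore fall on a neighbour, and the share of such reads was not tested because the mismatch setting is not given in the sources used here.

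The passenger strands share no common seed: 8 seeds occur over the 12 rows. The 4 passenger strands on which the results below turn are shown with their own seeds in capitals.
let-7b-3p: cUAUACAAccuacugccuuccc
let-7d-3p: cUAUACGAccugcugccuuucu
let-7e-3p: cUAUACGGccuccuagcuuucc
let-7i-3p: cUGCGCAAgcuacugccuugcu

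The family comes from 12 hairpins on 7 chromosomes (GRCm38.p6 positions, GENCODE vM21 gene models). Mirlet7a-1 (chromosome 13, 48538179 to 48538272), Mirlet7f-1 (48537829 to 48537917) and Mirlet7d (48536012 to 48536114) lie on the minus strand within exons of the lincRNA 6720427I07Rik, 261 and 1714 bases apart. Mirlet7c-2 (chromosome 15, 85706603 to 85706697) and Mirlet7b (85707319 to 85707403) lie 621 bases apart in exons of the non-coding RNA Lncppara. Mirlet7f-2 (chromosome X, 151912346 to 151912428) and Mir98 (151913214 to 151913321) lie 785 bases apart in an intron of Huwe1, which encodes a ubiquitin ligase. Mirlet7g (chromosome 9, 106178840 to 106178927) is intronic in Wdr82. Mirlet7e (chromosome 17, 17830352 to 17830444) is intronic in Spaca6. Mirlet7a-2 (chromosome 9, 41536716 to 41536811) is in an intron of 3110039I08Rik, and Mirlet7c-1 (chromosome 16, 77599657 to 77599750) in an intron of Mir99ahg. Mirlet7i (chromosome 10, 122985640 to 122985724, minus strand) overlaps an exon of the transcribed pseudogene D630033A02Rik. Because let-7a, let-7c and let-7f each have more than 1 hairpin with an identical 5p arm, their 5p counts cannot be assigned to a locus.

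The Mirlet7i and Mirlet7e hairpins are printed because their 5p and 3p arms went opposite ways between stages. Both arms are in capitals.
Mirlet7i: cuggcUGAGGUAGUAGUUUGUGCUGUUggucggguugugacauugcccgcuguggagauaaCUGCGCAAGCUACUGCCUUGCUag
Mirlet7e: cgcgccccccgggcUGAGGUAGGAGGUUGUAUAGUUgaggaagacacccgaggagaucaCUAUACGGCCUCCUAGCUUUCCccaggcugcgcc
The letters GGAG, the core of a known LIN28 recognition motif, were searched on the RNA strand between the arms. They occur there in 9 of the 12 let-7 family hairpins, Mirlet7i and Mirlet7e included, and in 44 of 633 other hairpins with 2 annotated arms (6.95%). Stretches between the let-7 arms are 23 to 36 bases long and those of the other hairpins were not matched to that length. The hairpins without these letters were Mirlet7b, Mirlet7c-2 and Mir98.

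Library depth ranged from 14347091 to 17933518 mature counts in adults, and was 8944552 in the e13.5 wild-type and 2671957 in the e13.5 knockout library. Levels below are given as CPM, counts divided by a library's mature total and put on a common scale, after TMM scaling, which adjusts those totals for differences in composition, unless plain CPM or a share is named. The scaling bears on the comparison of stages: miR-143-3p and miR-21a-5p together held 7.41% to 11.6% of adult counts but 50.1% and 40.1% of e13.5 counts. Over all tested miRNAs the median log2 fold between stages was −0.06 with TMM, 0.93 with library totals and 0.72 with median-of-ratios factors. The listed cardiomyocyte miRNAs, which are miR-1a, miR-133a, miR-133b, miR-499, miR-208a and miR-208b, took 28.2% to 39.5% of adult counts, 14.6% in the e13.5 wild-type and 9.86% in the e13.5 knockout library, with counts for 12 of 13 rows. Smooth muscle and fibroblast miRNAs held 7.48% to 11.8% of adult counts, and 35.6% and 21.5% of the e13.5 wild-type and knockout counts. Leukocyte miRNAs went the other way, at 0.0855% to 0.171% in adults against 0.00559% and 0.0117% at e13.5, and erythroid miRNAs held 0.565% to 2.23% in adults against 0.0748% and 1.43%. The endothelial miRNA held 1.65% to 3.11% in adults and 1.90% and 1.63% at e13.5. Small shares that were higher at e13.5 came from 3 other lists. Epithelial miRNAs held 0.00245% to 0.00548% in adults and 0.145% and 0.204% at e13.5. Neuronal miRNAs held 0.00787% to 0.0155% and then 0.0238% and 0.0306%. The liver miRNA held at most 0.000383% in adults and 0.00452% and 0.0192% at e13.5. The part of these shares in the stage differences was not tested. In bulk RNA, fewer cells of a type and less RNA per cell cannot be told apart.

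The family was among the abundant miRNAs at both stages, and its make-up differed between them. Its 5p arms held 6.46% and 5.87% of mature counts in the adult wild-type libraries, 8.59% and 3.98% in the adult knockouts, 5.68% in the e13.5 wild-type library (Wilson 95% interval 5.665 to 5.695, counting error only) and 8.50% in the e13.5 knockout library (8.466 to 8.533). As shares, the e13.5 values lay within the adult range. After TMM scaling the summed 5p level was 71633 and 77690 CPM in adult wild types, 89347 and 70201 in adult knockouts, and 45749 and 39247 at e13.5 in wild type and knockout, so both e13.5 values lay below all 4 adult values. Whether the family as a whole was lower at e13.5 therefore depended on the scaling, whereas its make-up did not, since shares within the family need no scaling.

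let-7i-5p took most of the family's guide reads at e13.5, and let-7f-5p and let-7g-5p did so in adults. let-7i-5p made up 54.6% of the family's 5p counts in the e13.5 wild-type and 51.1% in the e13.5 knockout library, against 11.4% to 14.8% in adults (mean 12.9% ± 1.45, SD, n = 4). let-7f-5p went the other way, from 31.3% to 46.9% in adults (mean 40.3% ± 7.01, SD, n = 4) to 17.2% and 16.4% at e13.5. let-7g-5p held 18.7% to 28.1% in adults and 15.1% and 13.1% at e13.5. Within a library there were 3.18 and 3.13 let-7i-5p counts per let-7f-5p count at e13.5, against 0.242 to 0.474 in adults. let-7e-5p, the rarest guide in adults at 0.333% to 0.597% of the family, held 2.39% and 2.36% at e13.5. For let-7i-5p, let-7f-5p, let-7g-5p and let-7e-5p the shares of the stages did not overlap. The same held for let-7b-5p, let-7d-5p and miR-98-5p, all with lower shares at e13.5, whereas those of let-7a-5p and let-7c-5p overlapped. These shares are parts of a common total, so the larger share of let-7i-5p by itself lowers those of the other members. Among these others, there were 0.882 and 0.801 let-7g-5p counts per let-7f-5p count at e13.5, against 0.546 to 0.709 in adults. Overlap was not counted for miRNAs outside the family.

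**Figure D1:**
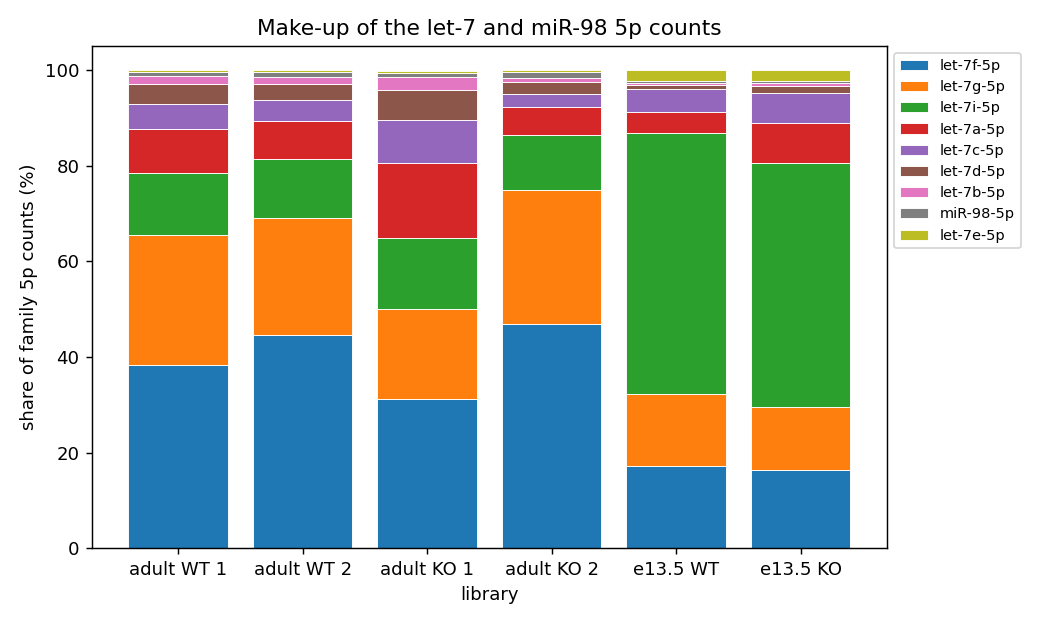
Share of the family's 5p counts (vertical axis, %) taken by each of 9 guide strands in each of 6 libraries (horizontal axis). The let-7i-5p segment fills 54.6% and 51.1% of the e13.5 bars and 11.4% to 14.8% of the adult bars.

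In plain CPM, let-7f-5p led the family in all 4 adult libraries, at ranks 9 to 11 among all mature miRNAs, with let-7g-5p behind it. let-7i-5p came next in 3 of these libraries, and in adult knockout replicate 1 let-7a-5p stood just above it (13507 against 12745 CPM). At e13.5 let-7i-5p led, at rank 5 in the wild-type and rank 4 in the knockout library, followed by let-7f-5p and let-7g-5p. The lower end of the order also differed: let-7e-5p was last in every adult library and sixth of 9 at e13.5, where miR-98-5p was last. With TMM scaling the adult ranges of let-7b-5p (600 to 2432 CPM) and miR-98-5p (609 to 907) overlapped, and their order turned in adult knockout replicate 2. The adult ranges of let-7a-5p, let-7c-5p and let-7d-5p overlapped too, but within each of the 4 adult libraries let-7a-5p stood above let-7c-5p, and let-7c-5p above let-7d-5p. There were 0.475 to 0.573 let-7c-5p counts per let-7a-5p count in adults.

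The comparison of stages asked which members differ between embryonic and adult cardiomyocytes, with genotype in the model. All 20 arms passed the filter on low counts. At e13.5, 2 guide strands rose (let-7e-5p and let-7i-5p), 6 fell (let-7a-5p, let-7b-5p, let-7d-5p, let-7f-5p, let-7g-5p and miR-98-5p) and let-7c-5p did not pass. Of the 11 passenger strands 8 fell, 0 rose and 3 did not pass (edgeR quasi-likelihood test, Benjamini-Hochberg adjusted over all 679 miRNAs tested). In the same fit 57.7% of all tested miRNAs were called, 29.3% higher and 28.4% lower. The median log2 fold was −1.64 over the 9 guide strands, −2.24 over the passenger strands and −0.06 over all tested miRNAs. With library totals 8 arms fell and the 2 higher guides were called, where 17.7% of all tested miRNAs were called lower and 38.7% higher. Median-of-ratios factors gave the same counts of arms, beside 19.6% lower and 35.5% higher. Relative to the median of all tested miRNAs, 7 of 9 guide and 11 of 11 passenger strands were lower, arms without a call included. By definition, as many tested miRNAs lie below that median as above it. A change of scaling moves each fold and the median almost alike, so this position is no check on the calls.

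**Figure D2:**
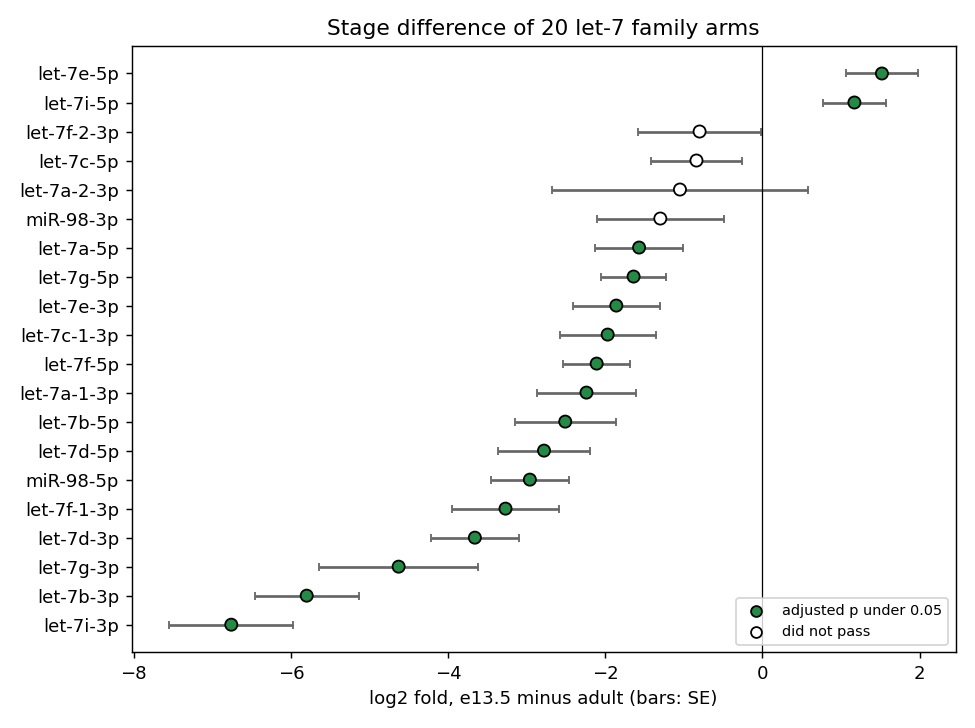
Log2 fold between stages (horizontal axis, e13.5 minus adult) for 20 arms, with SE bars, from the edgeR fit of 6 libraries with TMM scaling. Filled points passed an adjusted p of 0.05: let-7e-5p and let-7i-5p lie to the right of 0, and let-7i-3p lies farthest to the left at −6.76.

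Of the guides that rose, let-7i-5p stood at 9220 and 9683 CPM in adult wild types, 13254 and 7981 in adult knockouts, 24976 in the e13.5 wild-type and 20070 in the e13.5 knockout library. Both e13.5 libraries were above all adult ones. The log2 fold was 1.17 (SE 0.40, edgeR adjusted p = 0.0331). It did not pass without the e13.5 wild-type library (0.97, edgeR adjusted p = 0.181), without the e13.5 knockout library (1.40, edgeR adjusted p = 0.0686) or with no filter on low counts (1.12, edgeR adjusted p = 0.0927). With library totals it was 2.16 (edgeR adjusted p = 0.000425).

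let-7e-5p was at 348 and 301 CPM in adult wild types, 534 and 234 in adult knockouts, and 1091 and 925 at e13.5 in wild type and knockout. The stages did not overlap, on plain CPM either. Its log2 fold was 1.52 (SE 0.46, edgeR adjusted p = 0.0220), and leaving out the wild-type library at e13.5 gave 1.32 (edgeR adjusted p = 0.119).

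Among the guides that fell, let-7f-5p was at 27502 and 34678 CPM in adult wild types, 27976 and 32953 in adult knockouts, and 7851 and 6420 at e13.5 in wild type and knockout. All 4 adult libraries were above both e13.5 libraries. Its log2 fold was −2.11 (SE 0.43, edgeR adjusted p = 0.00306), and it remained called under all 13 alternatives run, with values from −2.21 to −1.04.

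miR-98-5p, which comes from the same Huwe1 intron as 1 of the let-7f hairpins, fell by 2.96 on the log2 scale (SE 0.50, edgeR adjusted p = 0.00136). Its levels were 609 and 907 CPM in adult wild types, 708 and 886 in adult knockouts, and 107 and 93.0 at e13.5. let-7d-5p was at 2942 and 2583 CPM in adult wild types, 5619 and 1778 in adult knockouts, and 381 and 571 at e13.5, a log2 difference of −2.78 (SE 0.59, adjusted p = 0.00418 by edgeR). Both kept their call under all 13 alternatives run, and for both the e13.5 values lay below the adult ones after TMM scaling. On plain CPM this held for miR-98-5p but not for let-7d-5p. let-7d-5p was at 1236 in the e13.5 knockout library and 1009 in adult knockout replicate 2.

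let-7g-5p, let-7b-5p and let-7a-5p were lower at e13.5 in calls that depended on the scaling. let-7g-5p stood at 16732 to 19708 CPM in adults and at 6923 and 5142 at e13.5, a log2 difference of −1.64 (SE 0.41, adjusted p = 0.00900 by edgeR), and at −0.58 with library totals (edgeR adjusted p = 0.265). let-7b-5p had 600 to 2432 CPM in adults and 197 and 274 at e13.5, a log2 difference of −2.51 (SE 0.64, adjusted p = 0.00974 by edgeR), and −1.56 with library totals (edgeR adjusted p = 0.0634). let-7a-5p had 4109 to 14046 CPM in adults and 2021 and 3246 at e13.5, a log2 difference of −1.57 (SE 0.56, adjusted p = 0.0391 by edgeR), and −0.60 with library totals (edgeR adjusted p = 0.401). Calls of all 3 were also lost when either adult wild-type library was left out, at −1.16 and −1.26 for let-7g-5p, −1.91 and −2.02 for let-7b-5p, and −0.96 and −1.08 for let-7a-5p. Without adult knockout replicate 1, let-7b-5p was at −1.59 (edgeR adjusted p = 0.0578) and let-7a-5p at −0.74 (edgeR adjusted p = 0.265), and neither passed. let-7g-5p also lost its call without the e13.5 knockout library (−1.47), and let-7a-5p without the e13.5 wild-type (−1.42) or the e13.5 knockout library (−1.66). With median-of-ratios factors let-7g-5p was at −0.87, let-7b-5p at −1.76 and let-7a-5p at −0.81, and none passed (edgeR adjusted p = 0.0618, 0.0507 and 0.239). DESeq2 called let-7g-5p and let-7b-5p but not let-7a-5p (−0.81, DESeq2 adjusted p = 0.258), and limma called all 3.

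let-7c-5p, 1 base from let-7a-5p, showed no call. Its levels were 3735 and 3324 CPM in adult wild types, 8046 and 1952 in adult knockouts, and 2201 and 2507 at e13.5. The e13.5 libraries fell inside the adult range, and the log2 fold of −0.84 (SE 0.58, edgeR adjusted p = 0.236) became 0.10 with library totals.

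**Figure D3:**
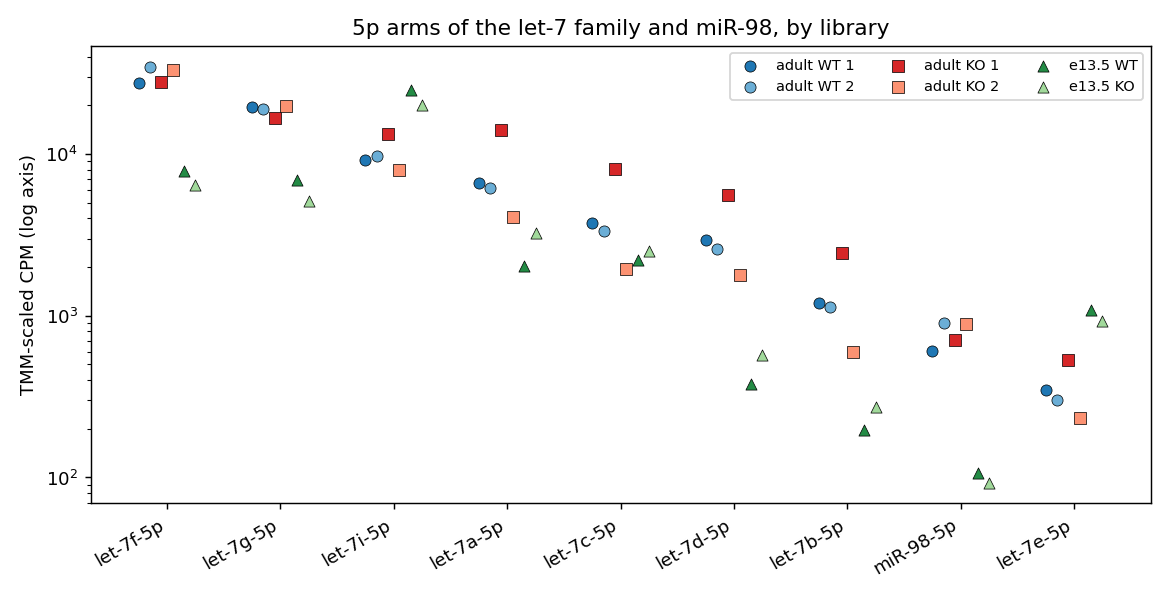
TMM-scaled CPM (vertical log axis) of the 9 guide strands in 6 libraries. Circles are adult wild type, squares adult knockout and triangles e13.5. The e13.5 triangles lie above the adult points for let-7i-5p (24976 and 20070) and let-7e-5p (1091 and 925), within them for let-7c-5p and below them for the other 6.

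Among the 6 members with a single hairpin, the passenger strand had the lower log2 fold of the arms in 5, and miR-98 was the exception. How often this holds for hairpins outside the family was not counted. let-7i-3p was at 65.6 and 151 CPM in adult wild types, 131 and 92.1 in adult knockouts, and 0.720 and 1.38 at e13.5, where each library held 8 counts. The adult libraries were all far above the e13.5 ones. Its log2 fold was −6.76 (SE 0.79, edgeR adjusted p = 0.000192). On plain CPM, over the libraries of a stage together, let-7i-3p was 62.0 times higher in adults (95% counting interval 38.1 to 109). So the hairpin whose guide rose at e13.5 had a passenger strand that fell.

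let-7e showed the same opposition at a smaller size. let-7e-3p was at 24.1 to 31.4 CPM in adults and 7.83 and 7.60 at e13.5, a log2 difference of −1.86 (SE 0.55, adjusted p = 0.0196 by edgeR). That call was lost with library totals (−0.83, edgeR adjusted p = 0.384) and when any 1 of the 6 libraries was left out (−1.85 to −1.27), whereas the let-7i-3p call was kept under all 13 alternatives run. For let-7e, then, the call of the 3p arm depended on the scaling and on each library.

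let-7b-3p fell by 5.80 (SE 0.66, edgeR adjusted p = 0.000175) on the log2 scale, from 72.3 to 120 CPM in adults to 2.25 and 1.21 CPM at e13.5. let-7d-3p, the most abundant passenger strand, fell by 3.66 (SE 0.56, edgeR adjusted p = 0.000841), from 1033 to 1940 CPM in adults to 95.1 and 147. Both were called under all 13 alternatives run. let-7f-1-3p, at 22.5 to 33.1 CPM in adults and 4.23 and 1.73 at e13.5, fell by 3.27 (SE 0.68, edgeR adjusted p = 0.00353).

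let-7g-3p was rare, with 250 counts over the adult and 3 over the e13.5 libraries. Its plain CPM was 14.5 times higher in adults (95% counting interval 4.91 to 70.9), and its fitted log2 fold was −4.63 (edgeR adjusted p = 0.00461). The shared row of let-7a-1-3p and let-7c-2-3p fell by 2.24 on the log2 scale (SE 0.63, adjusted p = 0.0158 by edgeR) and let-7c-1-3p fell by 1.97 (SE 0.61, adjusted p = 0.0222 by edgeR). With library totals these 2 values were −1.04 and −0.89, and neither passed. The let-7c-1-3p call was also lost without any 1 of the 6 libraries (−2.01 to −1.45), and that of the shared row without any 1 except adult knockout replicate 1 (−2.29 to −1.23). let-7f-2-3p (−0.80), miR-98-3p (−1.30) and let-7a-2-3p (−1.05) did not pass. In the same library totals fit let-7f-2-3p was at 0.22 and let-7a-2-3p at 0.14.

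The ratio of the arms within a library is free of scaling between libraries, and it was taken for the 6 members with a single hairpin. let-7i had 64.3 to 141 guide counts per passenger count in adults, and 34670 and 14517 at e13.5 in wild type and knockout. Over the libraries of each stage together the ratio was 93.9 in adults and 24594 at e13.5, 262 times higher. let-7e went from 9.69 to 17.0 in adults to 139 and 122 at e13.5, and let-7b from 8.30 to 24.5 to 87.6 and 226. let-7d moved least among those that rose, from 1.52 to 3.26 in adults to 4.01 and 3.87. let-7g had 2537 to 6352 in adults, and its e13.5 ratios rest on 2 and 1 passenger counts. miR-98 was the exception, with 92.1 to 360 in adults and 35.9 and 53.8 at e13.5. At e13.5 the passenger counts were also low for let-7b (25 in wild type and 7 in knockout) and miR-98 (33 and 10). For each of the 6 members the adult and e13.5 ratios did not overlap, and these ratios were described without a test. Ratios of hairpins outside the family were not taken, so these values do not show whether the pattern is particular to let-7.

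**Figure D4:**
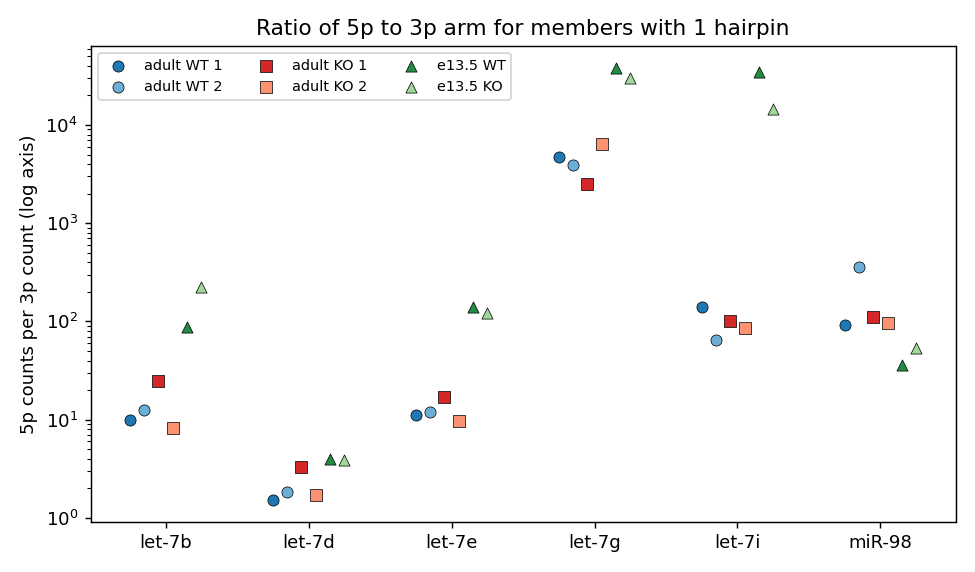
Guide (5p) counts per passenger (3p) count (vertical log axis) for the 6 members with 1 hairpin, 1 point per library. For let-7i the e13.5 triangles stand at 34670 and 14517 and the adult points at 64.3 to 141, whereas for miR-98 the triangles lie below the adult points.

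Adult genotypes were compared to ask whether loss of lncSync changes the family. By edgeR 0 of 20 arms passed among 544 miRNAs tested, and 0 had an unadjusted p under 0.05, as 2.94% of all tested miRNAs did. DESeq2 and limma each called 0 arms too. In the same fit 0.735% of all tested miRNAs were called. Adjusted p-values were 0.999 for every arm. The guides ran from a log2 fold of −0.01 for let-7g-5p to 0.58 for let-7a-5p (SE 0.60), with a median of 0.31 against 0.08 over all tested miRNAs. Values for let-7c-5p, let-7d-5p and let-7b-5p were 0.57 (SE 0.66), 0.49 (SE 0.59) and 0.45 (SE 0.65), and let-7f-5p was at 0.03 (SE 0.40).

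The knockout replicates stood on either side of the wild types for part of the family. let-7a-5p was at 6585 and 6168 CPM in the wild types, 14046 in knockout replicate 1 and 4109 in knockout replicate 2. let-7c-5p was at 3735 and 3324, then 8046 and 1952, and let-7b-5p at 1201 and 1127, then 2432 and 600. The same held for let-7d-5p, let-7e-5p and let-7i-5p. By contrast let-7f-5p, at 27976 in knockout replicate 1 and 32953 in replicate 2, lay within the wild-type range of 27502 to 34678. let-7g-5p (16732 and 19708 in the knockouts) and miR-98-5p (708 and 886) also had the lower value in replicate 1. The let-7g-5p knockouts stood on either side of its wild types (19490 and 18918) in that reverse direction. The miR-98-5p knockouts lay within its wild-type range of 609 to 907.

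Leaving out a knockout library therefore turned the direction. Without knockout replicate 2, 4 guides were higher in the knockout: let-7a-5p (log2 fold 1.14, edgeR adjusted p = 0.00668), let-7c-5p (1.19, edgeR adjusted p = 0.00718), let-7d-5p (1.02, edgeR adjusted p = 0.0344) and let-7b-5p (1.06, edgeR adjusted p = 0.0431). In that fit 2.17% of 645 miRNAs were called higher, against 0% in the fit of all 4 libraries. Without knockout replicate 1 these 4 were at −0.58, −0.80, −0.58 and −0.90, and none passed. In those fits 1 knockout library is assumed to vary like the wild types. The passenger row of let-7a-1-3p and let-7c-2-3p went the other way from its guides, at 250 and 207 CPM in the wild types, 136 in knockout replicate 1 and 502 in replicate 2. Without knockout replicate 1 it was higher in the knockout (log2 fold 1.19, edgeR adjusted p = 0.0247), in a fit that called 4.31% of 603 miRNAs higher.

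The difference between the knockout replicates was set beside the sequences printed above, a comparison chosen after its values were seen. let-7a-5p and the guides that carry none of G11A, G12A and G12U against it (let-7b-5p, let-7c-5p, let-7d-5p and let-7e-5p) were higher in replicate 1 by 1.77, 2.02, 2.04, 1.66 and 1.19 on the log2 scale. let-7i-5p, with G12U, was higher by 0.73. let-7f-5p (G12A), let-7g-5p (G12U) and miR-98-5p (G11A) were at −0.24, −0.24 and −0.32. Between the wild-type replicates the 9 differences ran from −0.57 to 0.21. These guides hold 7 to 10 G or C bases. Over the 9, the G and C count and the knockout replicate difference had a Pearson r of 0.79, given as a description of points that come from the same 2 libraries. The share of erythroid miRNAs (miR-451a, miR-144 and miR-486a) was 1.57% and 1.04% in the wild-type replicates, and 2.23% and 0.565% in the knockout replicates. The part of base composition or of blood RNA in these differences was not tested.

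**Figure D5:**
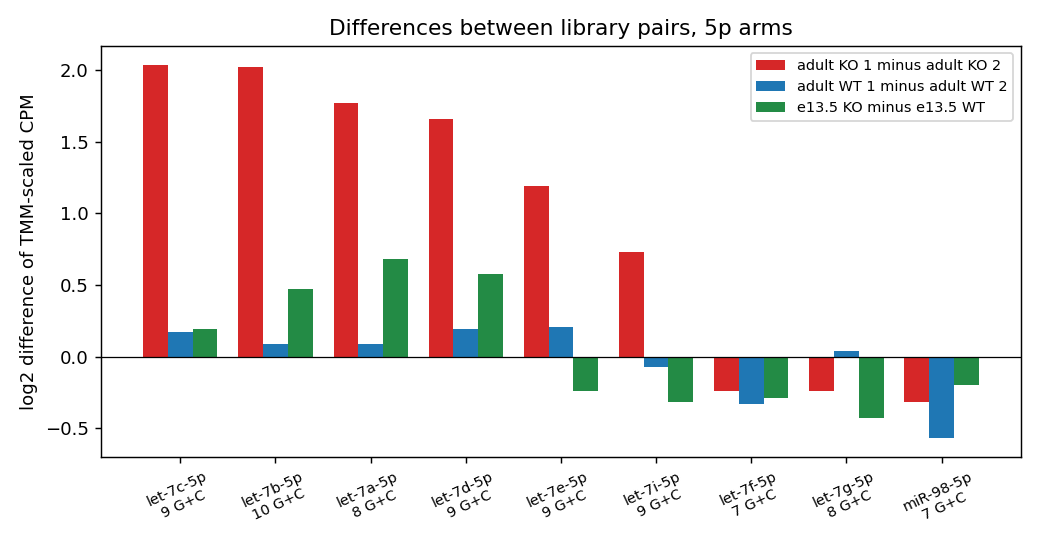
Log2 difference of TMM-scaled CPM (vertical axis) between pairs of libraries for the 9 guide strands, ordered by the difference between adult knockout replicates, with the number of G or C bases under each name. The red bars run from 2.04 for let-7c-5p to −0.32 for miR-98-5p, and the blue wild-type bars from 0.21 to −0.57.

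At e13.5 each genotype had 1 library, so the differences have no replicate check and no test. Of 17 arms with at least 10 counts in either library, 2 were at least 2-fold apart after TMM scaling, let-7f-1-3p (log2 fold −1.19) and let-7f-2-3p (−1.53), both lower in the knockout. Both were scarce, with 47 and 10 counts and 121 and 21 counts in wild type and knockout. Their knockout to wild-type ratios of plain CPM were 0.712 (95% counting interval 0.321 to 1.43) and 0.581 (0.347 to 0.928). In the same comparison 48.7% of 565 miRNAs were at least 2-fold apart, and the median log2 fold was −0.41. The arms and their direction turned with the scaling. Using library totals (44.2% of miRNAs at least 2-fold apart), neither of these was, and 5 others were, all higher in the knockout: let-7a-5p (1.49), the shared row of let-7a-1-3p and let-7c-2-3p (1.39), let-7b-5p (1.27), let-7d-5p (1.39) and let-7d-3p (1.43). Factors from the e13.5 libraries alone (45.8%), a setting chosen after seeing the data, gave let-7a-5p as higher, just at the limit, and let-7f-2-3p as lower (−1.22). With TMM scaling let-7a-5p, let-7d-5p and let-7b-5p were at 0.68, 0.58 and 0.47. let-7i-5p was at −0.32, let-7f-5p at −0.29 and let-7g-5p at −0.43. Directions of the last 3 turned with library totals, as knockout to wild-type ratios of plain CPM were 1.40 (95% counting interval 1.39 to 1.41), 1.43 (1.41 to 1.44) and 1.30 (1.28 to 1.31). The order of the members did not depend on scaling: let-7a-5p, with a ratio of 2.80 (2.75 to 2.86), was above let-7f-5p in each. let-7a-5p counts per let-7f-5p count were 0.257 in the e13.5 wild-type and 0.506 in the e13.5 knockout library. In adults this ratio was 0.239 and 0.178 in wild types, 0.502 in knockout replicate 1 and 0.125 in replicate 2, so the adult knockouts lay on both sides of the wild types.

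Averaged over stages, 0 of 20 arms differed by genotype by edgeR, DESeq2 or limma, and 0 had an unadjusted p under 0.05. Of 679 miRNAs 0.736% were called, and 2.06% had an unadjusted p under 0.05. The log2 folds ran from −1.33 for let-7a-2-3p, with at most 22 counts in a library, to 0.57 for let-7a-5p (SE 0.49, edgeR adjusted p = 0.989). The genotype by stage interaction, which asks whether the knockout difference changes between stages, also called 0 of 20 arms by edgeR, DESeq2 and limma, with 0 at an unadjusted p under 0.05. Of 769 miRNAs edgeR called 0%, and 5.98% had an unadjusted p under 0.05. Its spread comes from the adult replicates alone, and the single libraries of e13.5 are taken to have that same spread. Interaction estimates of the guides ran from −0.47 for let-7i-5p (SE 0.79) to 0.20 for let-7a-5p (SE 1.01).

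Hairpins of miR-99, miR-100 and miR-125 neighbour let-7 genes in the mouse genome, and their guides were compared with the family. Between stages miR-125b-5p and miR-125a-5p fell at e13.5 (log2 folds −4.01 and −2.54, edgeR adjusted p = 0.000268 and 0.00240), as did miR-99a-5p (−1.47, edgeR adjusted p = 0.0167). miR-100-5p (0.89, edgeR adjusted p = 0.0698) and miR-99b-5p (1.61, edgeR adjusted p = 0.0804) did not pass. Of their passenger strands, miR-99b-3p and miR-125b-1-3p rose, miR-100-3p and miR-125b-2-3p fell, and miR-99a-3p and miR-125a-3p did not pass. miR-99b, from the same cluster as let-7e, stood apart in 1 library: at e13.5 miR-99b-5p was at 14934 CPM in the knockout against 1901 CPM in the wild type, where let-7e-5p was at 925 and 1091. In adults miR-99b-5p ranged from 1810 to 2429 CPM.

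Among 148 other miRNAs with a mean of at least 100 CPM and counts in every library, miR-378a-3p followed the summed guide level most closely, with a Pearson r of 0.993 for log2 levels over 6 libraries. It was at 42549 and 54533 CPM in adult wild types, 83584 and 50845 in adult knockouts, and 13757 and 11337 at e13.5. miR-181b-5p (0.992), miR-103-3p (0.983), miR-25-3p (0.983) and miR-181a-5p (0.982) came next. These values describe 6 points that fall into 2 stages, and they share the libraries and scaling factors.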

How the data were processed

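Small RNA was sequenced from 6 libraries, made with the NEXTFLEX Small RNA kit from TRIZOL extracts per the labels' protocols. The authors deposited whole-number read counts per hairpin and mature miRNA, not normalized. Per the submitters' processing notes reads were placed on mm10. Not given in the sources used here: aligner, counter, trimming and how multi-mapping reads were treated. Molecular identifiers are not mentioned, and intervals cover counting error only. A count of 0 allows up to 3 counts, or 0.1673 to 0.2091 CPM in adult and 0.3354 and 1.123 CPM in e13.5 wild-type and knockout libraries.

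Of the mature rows, 22 whose counts agreed within 1% with another row (total of at least 20, counts in at least 3 libraries) were merged into it. edgeR 4.0.16 in R 4.3.3 (glmQLFit, glmQLFTest, two-sided) was fitted to all mature rows after TMM scaling and filterByExpr (minimum count 10), with p-values adjusted over all tested miRNAs at 0.05. SE is the log2 fold over the root of F. Residual degrees of freedom were 3 for stage and for genotype over both stages, and 2 for adult genotype and for the interaction. Levels use TMM factors over 6 libraries. At e13.5, log2 folds used these factors and a prior count of 2. DESeq2 1.42.0 and limma 3.58.1 were alternatives. The scripts were tested on simulated data with less spread between libraries than the real data, so that test does not bear on how reliable the calls are. No columns belonged to other samples (0). All arms are named, with full statistics for guides and for passengers of at least 10 mean CPM. Rarer passengers are given by their values. Members and lists were chosen with earlier results of these data known, and the G and C comparison after the values were seen. Sequences are RefSeq's, and 21 of 21 rows matched.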

Additional observations from a re-analysis of the deposited data

Results flagged for a closer look

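The table has 1 row named let-7j, which is no member by name. It has no arm suffix, and whether it counts the hairpin or the mature miRNA is not given in the sources used here. It held 10781 and 12615 counts in the adult wild-type libraries, 13700 and 6802 in the adult knockouts, 12885 in the e13.5 wild-type and 6423 in the e13.5 knockout library, all above the limit that a count of 0 allows. Over its first 22 bases the RefSeq let-7j sequence differs from let-7i-5p by G8U, within the seed. The row's counts were 7.23% to 10.3% of those of let-7i-5p in adults, and 4.65% and 5.53% at e13.5 in wild type and knockout. Whether the row holds let-7i-5p reads with a mismatch was not tested.

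The Mirlet7f-2 hairpin row held 63074 counts over the 6 libraries beyond those of its 2 mature arms, 1.75% to 3.78% of the hairpin's count in a library. The same difference was negative for Mirlet7a-2 (−1195 in total). For Mirlet7c-2 it was 1.53% to 2.69% in adults and negative at e13.5. How reads were assigned to hairpin and mature rows is not given, so such differences need not be reads outside the arms.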

How the results depend on the processing

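The count of arms higher at e13.5 was 2, and 1 with no filter on low counts. The count of lower arms was 14, and 8 with library totals as well as with median-of-ratios factors. DESeq2 called 2 higher and 13 lower arms, beside 249 higher and 157 lower of 679 miRNAs. With limma these were 2 and 14 arms, beside 229 and 225 miRNAs. Leaving out each library in turn gave 0 to 2 higher and 8 to 11 lower arms. Of the 16 stage calls, let-7b-3p, let-7d-5p, let-7d-3p, let-7f-5p, let-7f-1-3p, let-7g-3p, let-7i-3p and miR-98-5p were kept in all 13 alternatives, and none of the 16 changed direction. Signs changed between stages for 3 arms without a call. let-7c-5p was at 0.10 with library totals and −0.93 to 0.11 with a library left out. let-7a-2-3p was at 0.14 and −1.67 to 0.34, and let-7f-2-3p at 0.22 and −2.01 to 0.13, and 0.13 with wild-type libraries only.

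In adults 0 to 4 arms were called with a library left out. The log2 fold then ran from −0.58 to 1.14 for let-7a-5p, −0.90 to 1.06 for let-7b-5p, −0.80 to 1.19 for let-7c-5p, −0.58 to 1.02 for let-7d-5p, −0.42 to 0.71 for let-7e-5p, −0.15 to 0.14 for let-7f-5p, −0.20 to 0.09 for let-7g-5p, −0.19 to 0.49 for let-7i-5p and −0.14 to 0.32 for miR-98-5p. With library totals let-7f-5p was at −0.16 and miR-98-5p at −0.06. With the replicate number as a replicate block 0 arms were called. Over 679 miRNAs the differences between replicates 1 and 2 in wild type and in knockout had r = 0.00. That value does not cover the 9 guides by themselves. Their differences between replicates 1 and 2 had an r with the G and C count of 0.77 in wild type and 0.79 in knockout. Whether the replicate numbers stand for a shared batch was not tested. For genotype over both stages and the interaction, 41 of 240 and 28 of 200 arm values changed sign, and 0 passed.

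At e13.5, 5 arms were at least 2-fold apart with library totals, all higher in the knockout and none of them among the 2 lower ones found with TMM. Factors from the e13.5 libraries alone gave 2, let-7a-5p higher and let-7f-2-3p lower. Without miR-143-3p and miR-21a-5p in the total, the guides' share was 11.4% and 14.2% in the e13.5 wild-type and knockout libraries. In adults it was 6.98% and 6.64% in wild types (mean 6.81%) and 9.36% and 4.45% in knockouts. On this total both e13.5 shares lay above all adult ones. A smaller total raises every share, and the 2 miRNAs left out held 50.1% and 40.1% of e13.5 counts. The cause of the difference between stages was not tested. Depth limits the passenger strands most, with 8 counts of let-7i-3p in each e13.5 library.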

Other observations

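Over 133 abundant miRNAs outside the family (mean of at least 100 CPM), the share of G and C bases and the log2 difference between adult knockout replicates 1 and 2 had a Pearson r of 0.46. The same value was −0.06 for the adult wild-type replicates and 0.56 for the e13.5 knockout minus the e13.5 wild-type library. Within the family's 9 guides these 3 values were 0.79, 0.77 and 0.41. They describe single pairs of libraries, with no test. Of the other rows that carry the let-7 seed, let-7k had at most 8 counts in a library and miR-1961 had 0 in all 6.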
